A study of Mus musculus with 15 samples.

Results

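Genes that make, move, sense and break down eicosanoids were followed in the colon of mice with colitis-associated tumours, 10 of the 21301 genes tested on the array. They were the genes whose array name was Ptgs1, Ptgs2, Ptges, Hpgd, Slco2a1, Abcc4, Ptger4, Alox5, Alox12 or Alox15, a pathway proposed as a target of the drug 5-aminosalicylic acid (5-ASA, mesalamine). Together they held 19 of the 41174 probes, and 16 of these passed the brightness filter, with at least 1 probe for each of the 10 genes.

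Female Swiss Webster mice received the carcinogen azoxymethane at 7.4 mg/kg and then 4% dextran sulfate sodium, which injures the colon lining. It was given in 3 cycles of 7 days, each listed with 21 days of plain water. Age was 7 weeks when housed, 9 weeks at the first cycle and 18 weeks at the end. At these ages 3 full cycles would run past the end, so the days on water before tissue was taken are not known. All 4 groups shared the carcinogen and the dextran sulfate sodium. Polypoid colon of 5-ASA mice (75 mg/kg), polypoid colon of untreated mice, inflamed colon of 5-ASA mice and inflamed colon of untreated mice were each cut from frozen 5 µm sections by laser capture, in 2 animals a group. The series' design text calls the untreated mice vehicle-treated, and healthy colon was not analysed here. RNA amplified in 2 rounds was hybridised beside 100 ng of amplified mouse universal reference RNA on 15 two-colour arrays. The sample was in Cy3 on 8 arrays and in Cy5 on 7, and the second 5-ASA inflamed animal had 1 array while every other animal had a dye-swapped pair.

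Every level below is log2 of the sample over the reference RNA for 1 animal, so 0 means as bright as the reference, and a log2 difference of 1 is a 2-fold difference. Levels of one gene are not set against those of another, since probes differ in brightness. Animals, not arrays, are the unit of comparison, and each animal had equal weight whatever its number of arrays. Median sample intensity was 149 to 257 against a local background of 41 to 63, and 57.4% to 90.9% of spots were well above background. Animals of a group correlated across genes at r of 0.872 to 0.943. Scan dates formed 4 sessions, each with 1 to 3 animals, and session and tissue were only partly separable. In bulk tissue, fewer cells of a type and less RNA per cell cannot be told apart.

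Cyclooxygenases, encoded by Ptgs1 and Ptgs2, turn arachidonic acid into prostaglandin H2, which the synthase Ptges converts to prostaglandin E2. Prostaglandin E2 leaves cells through transporters such as Abcc4, acts on receptors such as Ptger4, and is removed by uptake through Slco2a1 followed by oxidation by Hpgd. Lipoxygenases (Alox5, Alox12, Alox15) insert oxygen into the same fatty acid and give leukotrienes and hydroxy fatty acids. Prostaglandin E2 is known for its part in colon inflammation and tumour growth, and loss of Hpgd and rise of Ptgs2 are commonly described in intestinal tumours.

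The promoter windows of the 3 genes that differed between tissues, and of Ptgs2, the gene that varied most between animals, are shown because these 4 genes carry the results. The windows run from 250 bases before to 50 bases after the transcription start, 5′ to 3′, from RefSeq on GRCm38.p6. Alox12 lies at chr11:70255321-70255620 on the minus strand, Abcc4 at chr14:118706170-118706469 on the minus strand, Slco2a1 at chr9:103008237-103008536 on the plus strand, and Ptgs2 at chr1:150099781-150100080 on the plus strand. Abcc4 has 2 windows in the table, of which the outermost is shown. Capitals mark, on either strand, a TATA box (TATAAA), a GC box (GGGCGG), a cAMP response element core (ACGTCA), an E-box (CACGTG) and a C/EBP palindrome (TTGCGCAA).
Alox12: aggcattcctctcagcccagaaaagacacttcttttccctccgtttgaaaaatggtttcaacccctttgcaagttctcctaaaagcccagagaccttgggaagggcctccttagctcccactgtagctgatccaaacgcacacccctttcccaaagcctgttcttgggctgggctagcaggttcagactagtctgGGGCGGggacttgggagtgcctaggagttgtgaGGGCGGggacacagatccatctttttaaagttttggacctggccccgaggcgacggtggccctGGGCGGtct
Abcc4: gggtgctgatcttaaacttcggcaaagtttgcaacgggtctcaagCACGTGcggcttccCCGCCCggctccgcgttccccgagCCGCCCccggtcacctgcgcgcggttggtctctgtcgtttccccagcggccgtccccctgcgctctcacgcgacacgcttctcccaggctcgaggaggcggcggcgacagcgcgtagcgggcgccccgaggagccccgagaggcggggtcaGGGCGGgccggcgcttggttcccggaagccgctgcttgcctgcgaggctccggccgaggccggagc
Slco2a1: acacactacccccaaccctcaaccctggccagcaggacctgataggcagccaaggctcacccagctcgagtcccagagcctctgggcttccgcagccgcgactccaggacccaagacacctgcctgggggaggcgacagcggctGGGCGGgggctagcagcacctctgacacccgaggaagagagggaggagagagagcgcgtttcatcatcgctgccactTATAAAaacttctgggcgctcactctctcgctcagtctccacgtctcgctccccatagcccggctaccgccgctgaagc
Ptgs2: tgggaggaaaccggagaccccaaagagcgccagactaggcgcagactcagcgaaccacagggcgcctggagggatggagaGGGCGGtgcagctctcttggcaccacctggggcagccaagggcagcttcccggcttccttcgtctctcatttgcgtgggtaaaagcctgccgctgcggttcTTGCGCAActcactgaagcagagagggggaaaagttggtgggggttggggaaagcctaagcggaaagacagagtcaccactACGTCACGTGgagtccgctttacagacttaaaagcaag

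Motifs were chosen after the windows had been seen, from a longer set searched in the same windows, and a match is a description only. The letters GGGCGG occurred 3 times in the Alox12 window, 3 times in the Abcc4 window and once in each of the windows of Slco2a1 and Ptgs2, and they occurred in 35.7% of the 32851 windows of this length in the table. Only Slco2a1 of the 4 held TATAAA, present in 13.6% of windows. Ptgs2 held TTGCGCAA, found in 0.183% of windows, and also ACGTCA (7.51%) and CACGTG (7.15%), which overlap each other just after the start site. Abcc4 held CACGTG as well. CTTTGA, a TCF/LEF core present in 16% of windows, was not in any of the 4 windows.

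**Figure D1:**
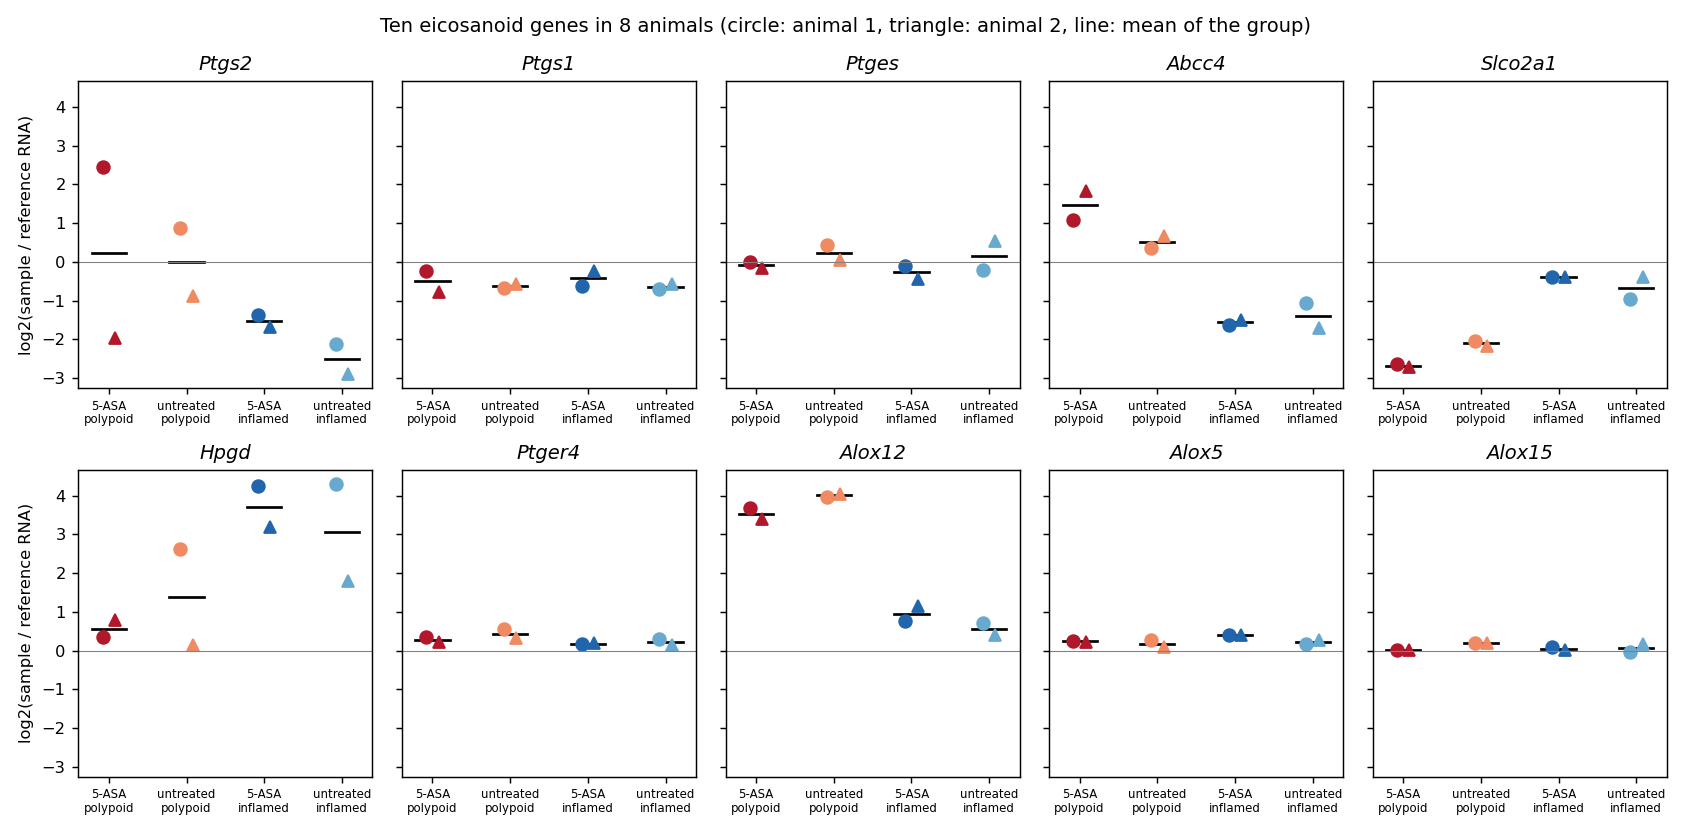
Level of each of the 10 genes, by its brightest probe, in each of the 8 animals. The vertical axis is log2 of sample over reference, and the groups lie along the horizontal axis. Circles are animal 1, triangles are animal 2 and bars are group means; Alox12 and Abcc4 sit higher and Slco2a1 lower in all 4 polypoid animals than in all 4 inflamed animals, while Ptgs2 and Hpgd spread widely.

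The first question was how the pathway differed between polypoid and inflamed colon. Alox12, the 12-lipoxygenase known from platelets, and Abcc4, a prostaglandin exporter, were higher in polypoid colon, and Slco2a1, the prostaglandin uptake transporter, was lower. Each is by the gene's brightest probe, and the second probes of Abcc4 and Slco2a1 differed far less. These 3 of the 10 genes (2 higher and 1 lower) passed limma's moderated test at a Benjamini-Hochberg adjusted p of 0.05 over the 21301 genes, and 5.94% of all genes tested did so (3.97% higher and 1.97% lower). The same 3 genes were also those whose 4 polypoid and 4 inflamed animals did not overlap, against 16.3% of all genes. The median log2 difference was 0.09 over the 10 genes and -0.02 over all genes. In 5-ASA mice alone the same 3 passed, where 3.06% of all genes did, and in untreated mice alone Alox12 passed, where 0.164% did. The 5-ASA arm's calls ended when any one of its 4 animals was left out, which leaves 1 animal in a group. The untreated arm's call ended without either untreated inflamed animal, the second untreated polypoid animal or either 5-ASA polypoid animal. In all of these fits nearly all calls over all genes ended as well. With any 1 animal left out, Alox12 differed by 2.37 to 2.77 in the 5-ASA arm and 3.30 to 3.61 in the untreated arm. In the 5-ASA arm Abcc4 then differed by 2.65 to 3.40 and Slco2a1 by -2.33 to -2.26. In the session that held both tissues, the untreated polypoid animal differed from the untreated inflamed animal by 3.65 for Alox12, 2.37 for Abcc4 and -1.78 for Slco2a1. With session as a fixed block, which left 1 residual degree of freedom, the differences were 3.30, 3.23 and -2.34 and none passed (limma adjusted p = 0.33 for each). In that fit 0 of the 21301 genes passed.

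Alox12 stood at 3.67 and 3.39 in 5-ASA polypoid animals, 3.97 and 4.05 in untreated polypoid animals, 0.76 and 1.15 in 5-ASA inflamed animals and 0.71 and 0.40 in untreated inflamed animals. As linear ratios these were 10.5 to 16.6 times the reference in polypoid colon and 1.32 to 2.22 times it in inflamed colon. All 4 polypoid animals were higher than all 4 inflamed animals, with no overlap, and within each tissue the arms did not overlap either. Group means were 3.53 ± 0.20 in 5-ASA polypoid, 4.01 ± 0.06 in untreated polypoid, 0.96 ± 0.28 in 5-ASA inflamed and 0.56 ± 0.22 in untreated inflamed colon (SD, n = 2 each). The log2 difference was 3.02 ± 0.14 (SE, 4 against 4 animals), 8.08-fold higher, with a 95% interval of 2.67 to 3.36 and a limma adjusted p of 0.0024. Alox12 passed in both arms, by 2.57 in 5-ASA mice (adjusted p = 0.011) and 3.46 in untreated mice (adjusted p = 0.035). A second, dimmer Alox12 probe gave a difference of 2.40, although it was well above background on 1 of 3 arrays of 5-ASA inflamed and 1 of 4 arrays of untreated inflamed animals, against all 8 polypoid arrays.

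Abcc4 stood at 1.08 and 1.84 in 5-ASA polypoid, 0.36 and 0.66 in untreated polypoid, -1.62 and -1.51 in 5-ASA inflamed and -1.07 and -1.71 in untreated inflamed animals. Every polypoid animal was above the reference and every inflamed animal was below it, and the arms overlapped in inflamed but not in polypoid colon. The difference of 2.46 ± 0.22 (SE) was 5.51-fold higher in polypoid colon, with a limma adjusted p of 0.0069. It passed in 5-ASA mice (3.02, adjusted p = 0.017) and not in untreated mice (1.90, adjusted p = 0.11). Leaving out the first 5-ASA inflamed animal ended the call in both arms together, at an adjusted p of 0.052. Abcc4's other probe, which was dim, differed by 0.19, and the mean of the gene's probes by 1.32.

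Slco2a1 stood at -2.65 and -2.72 in 5-ASA polypoid, -2.03 and -2.18 in untreated polypoid, -0.39 and -0.39 in 5-ASA inflamed and -0.97 and -0.40 in untreated inflamed animals. The 4 polypoid animals were the lowest 4, clear of the inflamed ones, and 5-ASA polypoid animals were the lowest of all. The difference of -1.86 ± 0.14 (SE) was 3.63-fold lower, with a limma adjusted p of 0.0049, and it passed in 5-ASA mice (-2.29, adjusted p = 0.014) and not in untreated mice (-1.43, adjusted p = 0.079). A second Slco2a1 probe, named for another transcript and bright on all 15 arrays, differed by only -0.11, and the mean of both probes by -0.99. By the second probe the polypoid and inflamed animals overlapped, and its difference was smaller than its SE of 0.13. The Slco2a1 probes therefore disagree on whether the tissues differed, and the lower level rests on the brighter probe.

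**Figure D2:**
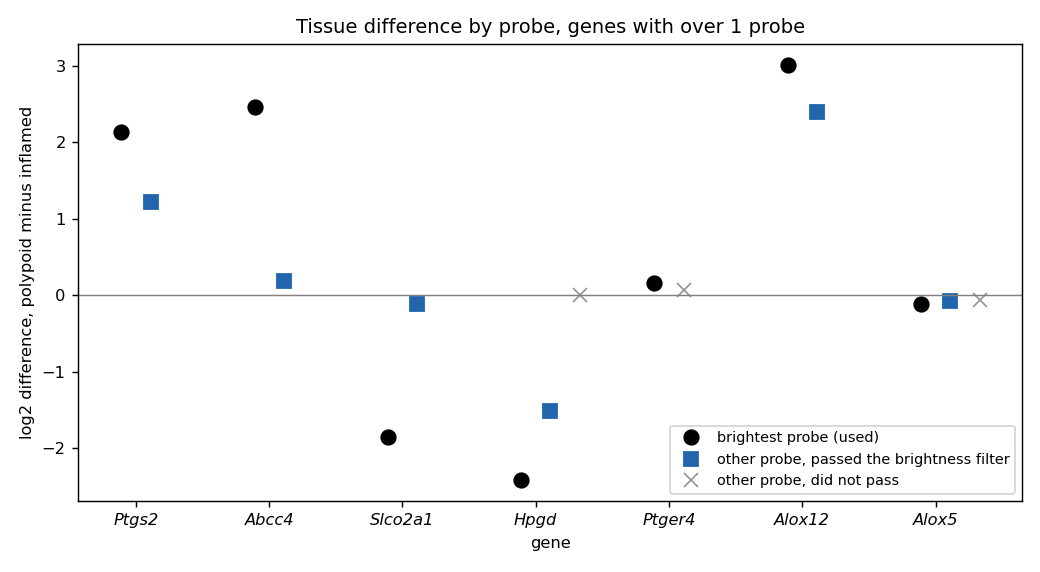
Log2 difference between polypoid and inflamed colon on the vertical axis, for each probe of the 7 genes with over 1 probe. Black circles are the brightest probe used above, blue squares other probes that passed the brightness filter and grey crosses probes that did not; Alox12 agrees in direction across its probes, while the second probes of Abcc4 and Slco2a1 sit near 0.

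Ptgs2 and Hpgd varied most between animals, and neither passed. Ptgs2, the inducible cyclooxygenase, stood at 2.45 and -1.98 in 5-ASA polypoid, 0.88 and -0.87 in untreated polypoid, -1.37 and -1.69 in 5-ASA inflamed and -2.12 and -2.90 in untreated inflamed animals. The first 5-ASA polypoid animal was the highest and the second was lower than both 5-ASA inflamed animals, so the tissues overlapped. The difference was 2.14 ± 0.98 (SE) with a limma adjusted p of 0.26, and its 95% interval ran from -0.24 to 4.52. It was 1.04 without the first 5-ASA polypoid animal and 3.25 (limma adjusted p = 0.051) without the second. Ptgs2's second probe showed the same spread, at 1.55 and -1.70 in 5-ASA polypoid animals. Over 8 animals Ptgs2 spanned 40.6-fold, more than 99.8% of genes, with dye-swapped pairs of one animal differing by at most 0.23. Ptgs2 was 1.57 higher in the 5-ASA polypoid animal than in the untreated one scanned in the same session, and lower in the other such pair.

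Hpgd, which inactivates prostaglandin E2, stood at 0.35 and 0.78 in 5-ASA polypoid, 2.62 and 0.14 in untreated polypoid, 4.24 and 3.20 in 5-ASA inflamed and 4.31 and 1.81 in untreated inflamed animals. The first untreated polypoid animal was above the second untreated inflamed one, and otherwise the inflamed animals were higher. The difference of -2.42 ± 0.75 (SE) had a limma adjusted p of 0.12, and Hpgd spanned 18.1-fold over 8 animals, more than 99.3% of genes. With Agilent's processed signals the difference was -2.71 and passed (limma adjusted p = 0.044). A second Hpgd probe differed by -1.51. In the single session with both tissues of untreated mice, Hpgd was lower in the polypoid animal by 1.67.

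The other 5 genes did not pass. Ptgs1, the constitutive cyclooxygenase, differed by -0.03, Ptges by 0.13, the prostaglandin E2 receptor Ptger4 by 0.16, the 5-lipoxygenase Alox5 by -0.11 and the 15-lipoxygenase Alox15 by 0.05, with limma adjusted p of 0.40 to 0.93. Their ranges over 8 animals were 0.55 for Ptgs1, 0.98 for Ptges, 0.42 for Ptger4, 0.33 for Alox5 and 0.24 for Alox15, where the median gene ranged 0.83. Ptger4 was dim: in inflamed colon its probe was well above background on 2 of 3 arrays of 5-ASA mice and 3 of 4 of untreated mice.

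**Figure D3:**
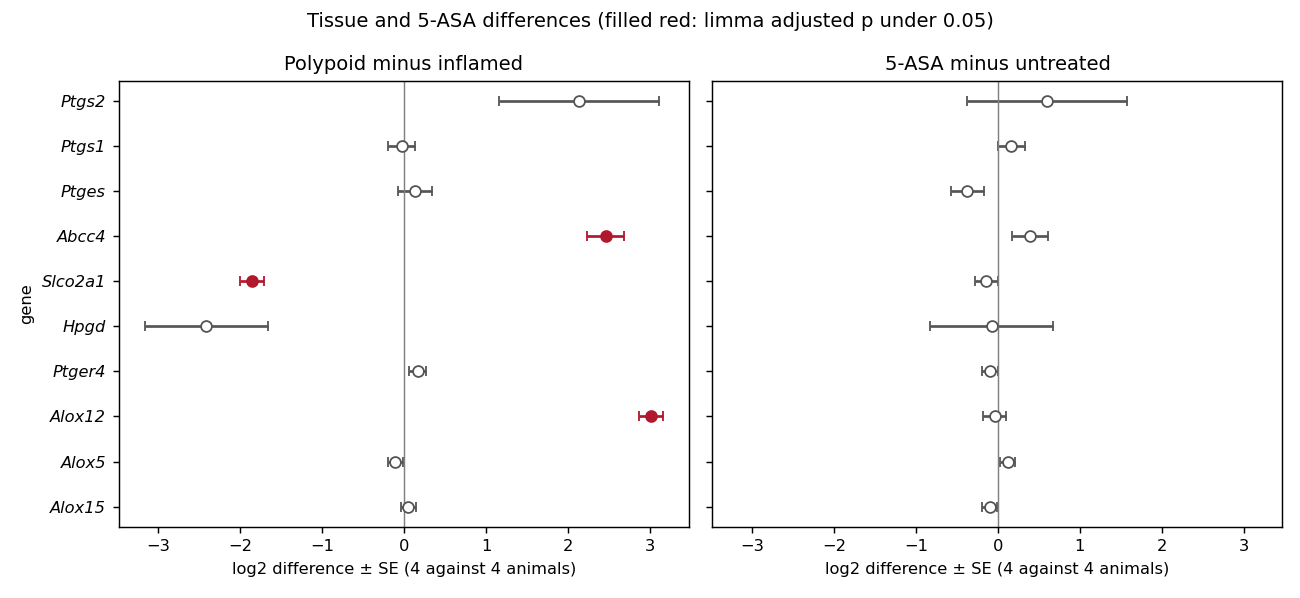
Log2 difference with its standard error for each of the 10 genes, polypoid minus inflamed colon on the left and 5-ASA minus untreated on the right, 4 against 4 animals in each. Filled red points passed an adjusted p of 0.05; Alox12 and Abcc4 lie to the right and Slco2a1 to the left in the first panel, and no gene passed in the second.

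The second question was whether 5-ASA moved the pathway. No gene of the 10 passed in 5-ASA over untreated mice in either tissue or in both together, and 0 of 21301 genes passed by limma in any of these comparisons (0% called, with Agilent's processed signals 1 gene in polypoid colon), while 1361 genes had an unadjusted p under 0.05 over both tissues, 1655 in polypoid and 934 in inflamed colon. Of the 10, 2 had an unadjusted p under 0.05 in polypoid colon, as did 7.77% of all genes: Abcc4 (0.95 higher with 5-ASA, limma adjusted p = 0.61) and Slco2a1 (-0.58, adjusted p = 0.61). By their second probes these polypoid differences were 0.03 for Abcc4, whose probe was dim, and -0.23 for Slco2a1. The same polypoid animals form 2 pairs scanned together, and the share of all genes with the same sign in both pairs was not counted. The differences of these pairs had the same sign for 6 of the 10 genes. Among these 6 they were 0.72 and 1.18 for Abcc4, -0.61 and -0.54 for Slco2a1 and -0.30 and -0.66 for Alox12. Ptges gave -0.43 and -0.20, Ptger4 -0.21 and -0.12 and Alox15 -0.20 and -0.18. Signs differed for Ptgs2 (1.57 and -1.10), Hpgd (-2.27 and 0.65), Ptgs1 (0.45 and -0.22) and Alox5 (-0.02 and 0.15). In the polypoid comparison 5 of the 10 genes had groups that did not overlap, against 40.5% of all genes, and 4 of 10 in inflamed colon, against 29.4%. For the difference of the 5-ASA effect between tissues, 0 of the 10 genes passed (0% of all genes by limma), while 3 of them, Abcc4, Slco2a1 and Alox12, had an unadjusted p under 0.05, as did 5.98% of all genes. With 2 animals a group, intervals are wide: Ptgs2 over both tissues differed by 0.60, from -1.78 to 2.98.

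**Figure D4:**
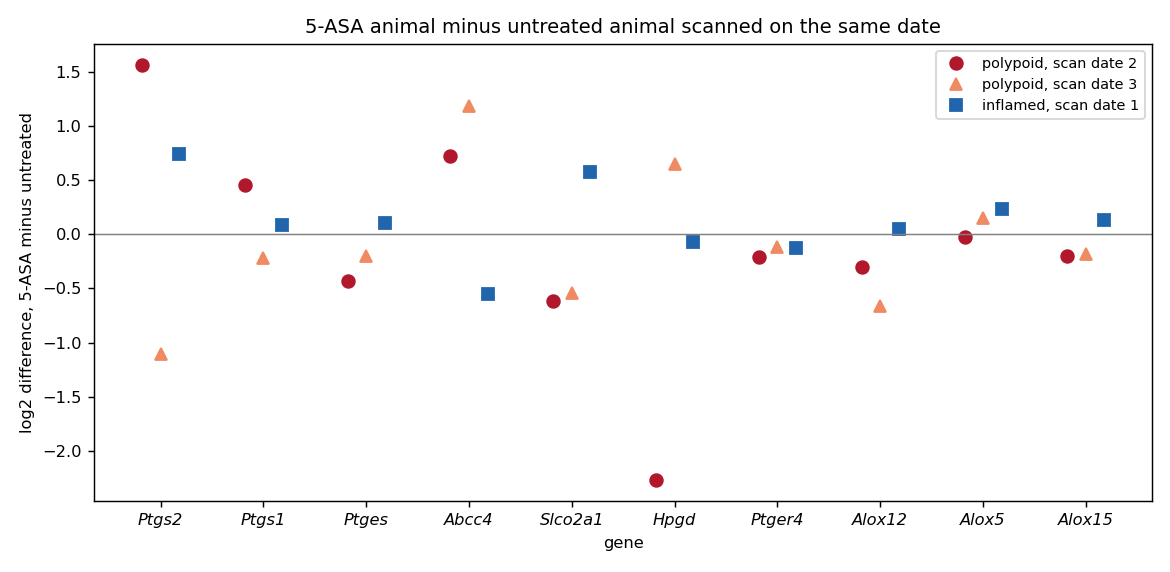
Log2 difference between a 5-ASA animal and an untreated animal scanned in the same session, by the brightest probe of each of the 10 genes. Circles and triangles are the 2 polypoid pairs and squares the inflamed pair; Abcc4 is above 0 and Slco2a1 below 0 in both polypoid pairs, while the inflamed pair gave -0.55 for Abcc4 and 0.57 for Slco2a1.

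The genes whose pattern was most like each member were ranked by Pearson's r over the 8 animals among 21298 genes, as a description: animals of one tissue share their level for several genes, so r carries no test. Alox12 was most like Psma7, Mmp7 and Fam89a (0.99 each), Abcc4 most like Pon2, Pls3 and Lratd1 (0.99 each) and Slco2a1 most like Dyrk1b and Zp3 (0.99 each). Ptgs2 was most like Galnt3 (0.98) and Lypd3 (0.97), and Hpgd most like Grtp1, Frat1 and Otog (0.99 each). Ptger4 was most like Map2 (0.99), Ptgs1 most like Epor (0.97), Ptges most like Trir (0.95), Alox5 most like Sgk1 (0.95) and Alox15 most like Unc5d (0.90). Array names without a gene symbol were passed over.

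The wider eicosanoid list of 62 genes, chosen with earlier results known, had 54 members tested. In polypoid over inflamed colon 2 of the 54 were higher, against 3.97% of all genes, and 5 were lower, against 1.97%. The higher ones were Ptgr1 (2.26-fold), a prostaglandin reductase, and Abcc2 (3.77-fold), another organic anion exporter. Abcc2 was well above background on all 8 polypoid arrays but on 2 of 3 arrays of 5-ASA inflamed and 3 of 4 of untreated inflamed animals, so it was tested because it was bright in polypoid colon. The 5 lower were Cbr3 (4.20-fold), Dpep1 (4.01-fold), Cmklr1 (2.35-fold), Cbr1 (1.91-fold) and Ptger3 (1.86-fold). Ptger3's other probe differed by only -0.20 in log2, against -0.90 by the probe used. The carbonyl reductases Cbr1 and Cbr3 reduce prostaglandins, Dpep1 cleaves leukotriene D4 and Ptger3 is a prostaglandin E2 receptor. The other 47 did not pass, the list's median log2 difference was -0.06 against -0.02 over all genes, and no member passed in any 5-ASA comparison.

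Some marker genes of other cells also differed between the tissues, where 3.97% of all genes were higher and 1.97% lower. Colonocyte genes averaged 1.04 to 1.19 over 10 genes in 5-ASA polypoid and 1.94 to 2.94 in untreated polypoid animals, against 3.34 to 3.84 in 5-ASA inflamed and 3.36 to 3.43 in untreated inflamed animals, and 5 of the 10 were lower. Smooth muscle genes averaged 0.57 to 1.17 over 8 genes in polypoid and 1.35 to 3.52 in inflamed animals, and 4 of the 8 were lower. Neutrophil genes averaged 1.62 to 2.39 in polypoid and 0.23 to 0.57 in inflamed animals over the 8 of 12 that were tested. Of these, Retnlg, Mmp8, Cxcr2 and Csf3r passed the brightness filter only through polypoid colon. Of the 3 neutrophil genes bright on every array, S100a9 was higher (20.0-fold), while Mpo (1.16-fold) and Il1r2 (1.07-fold) did not pass.

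Platelet genes, listed because Alox12 is a platelet enzyme, averaged 0.91 to 1.36 over 5 genes in polypoid and 0.55 to 0.91 in inflamed animals, and none of the 5 passed limma's test, with 1 at an unadjusted p under 0.05. No gene passed among 12 macrophage (3 at an unadjusted p under 0.05), 7 endothelial (0) and 4 eosinophil genes (0). Of 10 mast cell genes Hdc (3.89-fold) and Mcpt1 (1.93-fold) were higher, while 4 of the 10 had negative differences. Of 10 fibroblast genes Postn was lower (4.46-fold), though its other probe differed by only -0.34 in log2, and 4 of the 10 had positive differences. Of 10 tuft cell genes 8 had negative differences (median of the 10, -0.20), and none of these 8 passed. Avil passed and was higher, though it was not well above background on any inflamed array. Colon epithelial genes, which check the labelled tissue, averaged 2.61 to 3.24 over 10 genes in polypoid and 3.03 to 3.38 in inflamed animals, and Cdx1 of them was lower (2.20-fold). The part of these cells in the differences of Alox12, Abcc4 and Slco2a1 was not tested.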

How the data were processed

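Per the file headers, the deposited scanner files hold intensity values of each spot, mean brightness and median local background, made by the authors with Agilent Feature Extraction 9.1.1.1. Those files also hold, per the file headers, a log10 ratio of the processed signals, used here only to settle direction. The authors' value table is on a log2 scale, sample over reference, swapped arrays turned; its normalization is not given in the sources used here, and it served as an alternative. Here, limma 3.58.1 (R 4.3.3) corrected background with normexp (offset 50), normalized each array by loess, left out flagged spots and turned swapped arrays. A fit with animal and dye gave 1 value per animal. A probe had to be well above background on every sample array of at least 1 group, and the brightest probe stood for its gene. Group means were fitted over 8 animals, with 7 comparisons and Benjamini-Hochberg adjustment over 21301 genes at 0.05; fitted differences were tested on simulated data. Names came from a RefSeq table of GRCm38.p6 by accession (22864 probes), by name (10230), or as on the array (8080). The members and lists were chosen with earlier results of these data known. The genes named beyond the members are those of the wider list that passed, and, of the 3 most correlated with a member, those with a gene symbol; the cell markers named were chosen after their values were seen. Animals of a group are separate mice. With 2 a group, limma's p-values rest on 4 residual degrees of freedom and 2.14 prior ones taken from all genes.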

Additional observations from a re-analysis of the deposited data

Results flagged for a closer look

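For 2 of the 10 genes, by their brightest probes, the 5-ASA effect had opposite signs in the tissues. The animals of the arms did not overlap in either tissue for these 2. Groups did not overlap for 40.5% of all genes in polypoid and 29.4% in inflamed colon. The share of all genes doing so in both tissues with opposite signs was not counted. For Slco2a1 the effect in polypoid minus that in inflamed colon was -0.87, being -0.58 in polypoid and 0.29 in inflamed colon. For Alox12 it was -0.88, being -0.48 in polypoid and 0.40 in inflamed colon. A second Slco2a1 probe, also bright on all 15 arrays, gave the same sign in both tissues, -0.23 in polypoid and -0.18 in inflamed colon. The dimmer Alox12 probe kept opposite signs, at -0.75 in polypoid and 0.18 in inflamed colon. The inflamed side rested on small gaps: the nearest animals were at -0.39 with 5-ASA and -0.40 untreated for Slco2a1, and at 0.76 with 5-ASA and 0.71 untreated for Alox12. Leaving out 1 animal took the inflamed Slco2a1 effect to between 0.0070 and 0.58, and the inflamed pair scanned together gave 0.049 for Alox12. limma's test of the difference gave an adjusted p of 0.80 for each, so neither passed. The unadjusted p was under 0.05 for both and for Abcc4, 3 of the 10 genes, as for 5.98% of all 21301 genes.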

How the results depend on the processing

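Of 1510 differences of the 10 genes recomputed under alternatives, 450 were left unchanged by the alternative. Of the 1060 that moved, 68 turned sign, none of them called in either fit. Of the 1060, 115 started from a call, and these kept their sign, 91 of them still called. With scan session as a fixed block, which left 1 residual degree of freedom, 0 members passed in all 3 tissue comparisons. In these fits 0 of all 21301 genes passed. With session as a random block the member counts were 3, 3 and 1, where 1232, 695 and 53 of all genes passed. With only the compared groups fitted, the count was 0 in untreated mice, where 0 of all genes passed. It was 4 in 5-ASA mice, where 1177 of all genes passed and Hpgd was the added member (limma adjusted p = 0.038). Scaling between arrays, an alternative added after seeing the data, gave a count of 0 in untreated mice, where 15 of all genes passed. Leaving out 1 animal gave 2 to 3 members over both arms, 0 to 3 in 5-ASA mice, where each of the 4 animals ended the calls, and 0 to 1 in untreated mice. With the replicate block, the counts were 3, 3 and 1, where 1788, 1088 and 17 of all genes passed. Same-numbered animals correlated at 0.034 to 0.363 in their deviations, so the numbers were not taken as pairs. Hpgd passed over both arms with Agilent processed signals, at an adjusted p of 0.044. Calls over all genes ranged from 0 to 1800 over both arms, against 1265, from 0 to 1177 in 5-ASA mice, against 651, and from 0 to 118 in untreated mice, against 35. Probes near background limit Ptger4 and Alox15.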
